A study of Mus musculus with 16 samples.

Results

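The difference between the tissue effects of 2 mouse genotypes was taken for every gene: the muscle against spleen change in regulatory T cells (Tregs) of mTreg24 T cell receptor transgenic mice (Tg) minus the same change in their non-transgenic counterparts (WT). The contrast rests on 8 of the 16 libraries of the series, 2 in each of 4 groups. Tg Tregs came from skeletal muscle and from spleen of mTreg24 TCR-tg+ mice, and WT Tregs from the same organs of mTreg24 TCR-tg- mice. All mice carried the Foxp3 GFP reporter on the B6 background, were 6 to 8 weeks old, and had been injured in muscle with cardiotoxin (Ctx) 3 days earlier. The injury of the WT spleen donors is given by the series' design text and not by a sample label. The sort took Vβ8+ Tregs from Tg mice but Tregs of any receptor from WT mice, so gate and genotype cannot be told apart in any Tg against WT value. The transgene's promoter, the number of animals behind each library and whether the libraries of a group came from separate animals are not stated in the labels. The p-values therefore reflect only how far these libraries differ, which may be technical. A further 2 libraries, of Vβ8+ Tregs from spleens of uninjured Tg mice, entered the model fit but not the contrast.

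Tregs are CD4+ T cells that depend on the transcription factor Foxp3 and restrain other immune cells. In lymphoid organs many of them are in a resting state, with genes for recirculation and quiescence on, while Tregs of non-lymphoid tissues carry an effector program of chemokine receptors, the interleukin-33 (IL-33) receptor and growth factors such as amphiregulin. After muscle injury Tregs accumulate in the muscle and promote its repair. A T cell receptor transgene gives most T cells of a mouse the same receptor, here one of the Vβ8 family. A difference between the tissue effects can arise in any of the 4 groups, and it equals the Tg against WT difference in muscle minus the Tg against WT difference in spleen. Each gene was therefore placed by the tissue that held the difference: muscle where the muscle term made up more than 0.67 of it, spleen where it made up less than 0.33, and both otherwise.

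The Treg libraries held between 1986700 counts, in the first WT spleen library, and 9116800, in the second WT muscle library. Both of these extremes enter the WT tissue effect. Levels are given as CPM, counts per 1000000 counts of a library after TMM scaling. Foxp3 stood at 1352 and 1176 CPM in WT spleen, 1229 and 1166 in Tg spleen, 1879.7 and 2173 in WT muscle and 2152 and 2314 in Tg muscle, and none of the 18 Treg identity markers was at 0 in both libraries of a group. The B cell marker Ms4a1 was at 1.12 CPM or less in the muscle libraries and at 14.8 or less in spleen. The second WT spleen library stood apart with 1772 CPM of the immunoglobulin light chain gene Igkc, against 14.9 CPM in the first. The 23 macrophage and monocyte markers summed to between 578 and 618 CPM in Tg spleen, 502 and 522 in WT spleen, 460 and 479 in Tg muscle, and 314 and 535 in WT muscle. Of them, 1 was at 0 in both libraries of Tg spleen, 0 in WT spleen and 4 in each muscle group. Ctss alone held 252 to 455 CPM of the sum in the Treg libraries. The defining macrophage gene Csf1r was at 27.9 and 45.8 CPM in Tg spleen, 4.33 and 20.5 in WT spleen and at most 7.48 in muscle. Csf1r was at 30 and 10.5 CPM in uninjured Tg spleen. The mean log2 CPM of the macrophage markers that were tested was 3.59 and 3.49 in Tg spleen against 1.79 and 2.49 in WT spleen. In uninjured Tg spleen it was 2.84 and 2.34, and the 23 markers summed to 435 to 515 CPM. The 12 dendritic cell and MHC class II genes summed to 239 to 331 CPM in Tg and 64.6 to 187 in WT libraries of the 2 organs. The 12 CD8, NK and γδ T cell genes summed to 114 to 141 CPM in Tg muscle against 26.9 to 33.7 in WT muscle, and to 90.4 to 152 in Tg spleen against 49.2 to 51.4 in WT spleen. The sign was mixed among the genes: of the 5 that were tested, 1 was higher and 4 lower in Tg muscle, and 3 were higher and 2 lower in Tg spleen. The mean log2 CPM of these 5 was 3.71 and 3.96 in Tg spleen against 1.78 and 2.83 in WT spleen. In muscle it was 1.2 and 1.1 in Tg against 0.5 and 0.8 in WT. The part of these cells in the results was not tested. In such bulk libraries, fewer cells of a type and less RNA per cell cannot be told apart.

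Of 13188 genes tested, 18 had a different muscle against spleen effect in Tg and WT Tregs at an adjusted p under 0.05 (0.136% of the genes tested, edgeR quasi-likelihood test with Benjamini-Hochberg adjustment). The difference was positive, that is, the muscle against spleen effect was higher in Tg, for 7 of them (0.0531%) and negative for 11 (0.0834%). In all 16 choices of 1 library per group the sign was the same for each of the 18, a property of 2751 genes tested (20.9%). Of the 1046 genes at an unadjusted p under 0.05, 412 were positive and 592 negative in all 16 choices. The choices reuse the libraries that gave the calls, so this property adds no support to the calls. The tissue effects themselves were called for far more genes: 2143 in WT (16.2%) and 973 in Tg (7.38%). The Tg against WT difference was called for 42 genes in muscle (0.318%) and for 172 in spleen (1.3%). The median SE of the difference was 0.494 on the log2 scale, against 0.35 or less for the effects it is made from. The count of 18 varied with single libraries: it was 3 without the first Tg spleen library, 4 without the second, 5 without the second WT spleen library, 9 without the first Tg muscle library, 61 without the first WT spleen library and 241 without the first WT muscle library. It was 62 with DESeq2, 140 without a filter on low counts, 4 without robust dispersion and 4 in a fit of the 8 libraries alone.

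Leaving out the T cell receptor genes Trbv13-2 and Trav9-4, the difference lay in spleen for 10 of the 16 called genes, in muscle for 3 and in both organs for 3. Among all genes tested the shares were 41.2% for spleen, 40.2% for muscle and 18.6% for both. The group that stood apart from the other 3 was WT spleen for 9 of the 16, Tg muscle for 4, Tg spleen for 2 and WT muscle for 1. For all tested genes WT spleen was the group apart in 33.6%, and for the 1046 genes at an unadjusted p under 0.05 (7.93%) it was so in 50.8%. Of these 1046, 434 had a positive difference (3.29% of the genes tested) and 612 a negative one (4.64%). At any p, 49.2% of the genes tested were positive and 50.8% negative.

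**Figure D1:**
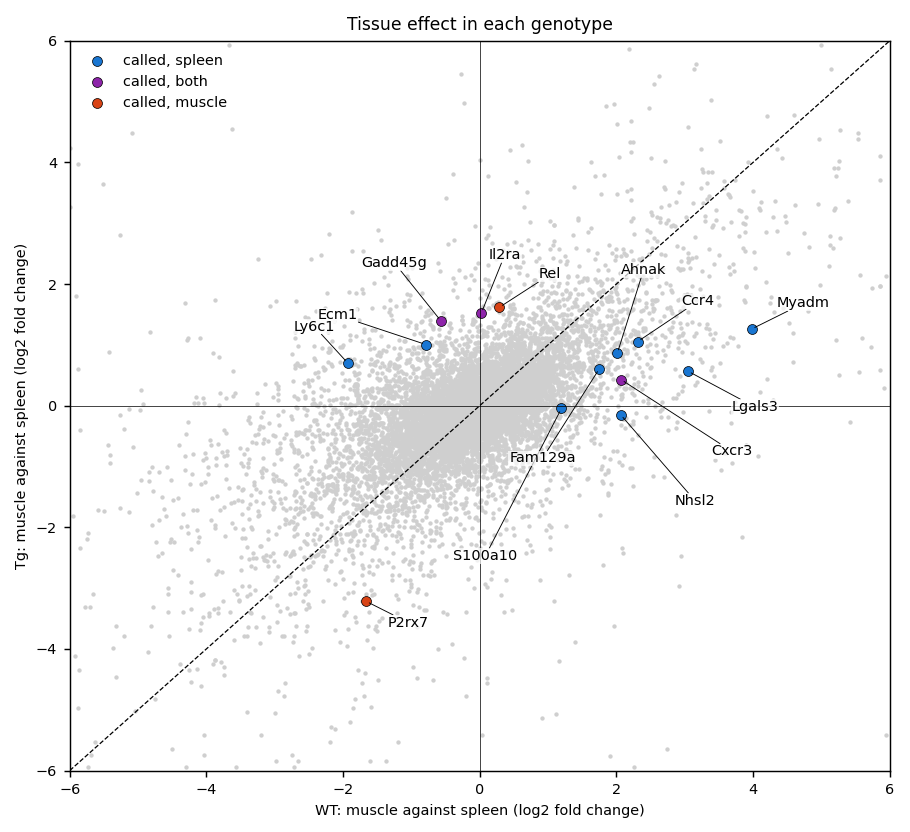
Muscle against spleen log2 fold change in WT (x axis) and in Tg Tregs (y axis) for each tested gene that is not a receptor gene; coloured points are 14 called genes, by the organ that held the difference, and the dashed line marks equal effects. Igfbp4 is not drawn because its fitted value rests on counts of 0, and 143 genes lie outside the axes. Myadm, Lgals3 and Nhsl2 lie well right of the line, and Ly6c1, Ecm1 and Gadd45g have negative WT and positive Tg values.

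**Figure D2:**
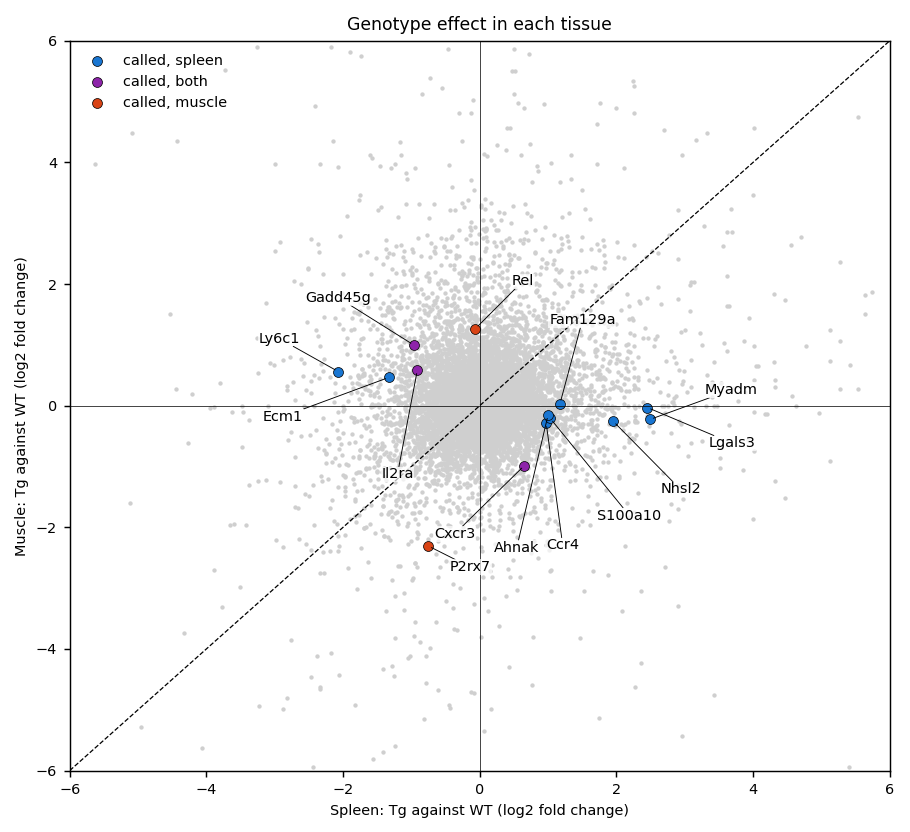
The same genes by the Tg against WT log2 fold change in spleen (x axis) and in muscle (y axis); the vertical distance from the dashed line is the difference of tissue effects. Genes whose difference lay in spleen sit close to the horizontal axis, while Rel sits close to the vertical one; Igfbp4 is not drawn and 33 genes lie outside the axes.

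For 8 of the 11 called genes with a negative difference WT spleen was the group apart, with the lowest level, and the difference lay in spleen. Myadm, a protein that spans the membrane several times, had the smallest p of all genes tested (chr7:3289080-3300442, plus strand, mm10). Its level was 15.4 and 18.4 CPM in WT spleen, 264 and 276 in WT muscle, 92.5 and 100.5 in Tg spleen and 195 and 266 in Tg muscle. Every Tg spleen library was above every WT spleen library, the muscle libraries of the genotypes overlapped, and both muscle groups were above both spleen groups. Muscle exceeded spleen by 3.98 on the log2 scale in WT (SE 0.207, adjusted p = 2.5e-08) but by 1.26 in Tg (SE 0.176, adjusted p = 0.000317). The difference, Tg minus WT, was -2.72 (SE 0.265, adjusted p = 0.000548). It lay in spleen, where Tg Tregs held 2.49 more than WT (adjusted p = 1.25e-05), while the muscle term was -0.23 (adjusted p = 0.78).

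Promoter sequence is shown for 3 called genes whose difference lay in spleen: Myadm with the smallest p, Ecm1 as the most significant gene of the opposite sign, and Ccr4 as a homing receptor. Each window runs from 250 bases before to 50 bases after the RefSeq start site (GRCm38.p6, the same assembly as mm10), and capitals mark the AP-1 motif TGANTCA, searched on both strands. The windows are chr7:3288788-3289087 on the plus strand for Myadm, chr3:95739520-95739819 on the minus strand for Ecm1, and chr9:114496495-114496794 on the minus strand for Ccr4.
Myadm: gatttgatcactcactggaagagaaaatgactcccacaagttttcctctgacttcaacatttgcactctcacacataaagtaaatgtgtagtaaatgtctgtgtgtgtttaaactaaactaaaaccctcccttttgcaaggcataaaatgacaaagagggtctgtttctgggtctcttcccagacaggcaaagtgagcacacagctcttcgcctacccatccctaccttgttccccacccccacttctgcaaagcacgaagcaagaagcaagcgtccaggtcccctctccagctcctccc
Ecm1: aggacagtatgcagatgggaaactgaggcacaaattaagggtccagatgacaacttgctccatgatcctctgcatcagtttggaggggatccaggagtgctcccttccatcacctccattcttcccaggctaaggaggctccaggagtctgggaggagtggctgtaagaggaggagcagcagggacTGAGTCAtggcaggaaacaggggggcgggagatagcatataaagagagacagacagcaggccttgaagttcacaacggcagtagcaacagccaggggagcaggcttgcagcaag
Ccr4: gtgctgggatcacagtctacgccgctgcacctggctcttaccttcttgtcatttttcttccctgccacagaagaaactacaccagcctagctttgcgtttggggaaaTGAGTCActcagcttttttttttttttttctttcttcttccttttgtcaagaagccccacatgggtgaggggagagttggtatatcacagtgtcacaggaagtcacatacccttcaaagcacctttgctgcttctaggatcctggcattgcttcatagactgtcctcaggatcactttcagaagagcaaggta
AP-1 is the site bound by Fos and Jun family dimers, which T cell activation induces. The motif began 64 bases before the start site in Ecm1 and 143 bases before it in Ccr4, and Myadm had none in this window. Of the 12 called genes with a RefSeq promoter, 3 held the motif (the other is P2rx7), and 7.8% of 32851 promoters of the same length did. The RUNX motif TGTGGT was in 2 of the 12 (Rel and Cxcr3, against 16.8% of all promoters) and the KLF motif CCACACCC in Igfbp4 (3.6%). The STAT5 motif TTCNNNGAA was in 0 of the 12 (8.3%) and a narrow form of the NF-kB motif in 0 (0.4%). Other forms of the NF-kB motif were not searched, so the 0 does not show that these promoters lack such a site. Motifs overlapping one another were counted separately, and a match describes letters only.

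Lgals3 and Nhsl2 showed the same pattern as Myadm with an even flatter Tg profile. Lgals3 encodes galectin-3, a lectin that binds β-galactosides (chr14:47367751-47386160). It stood at 17.3 and 12.7 CPM in WT spleen, 104 and 137 in WT muscle, 99.9 and 59.7 in Tg spleen and 115 and 121 in Tg muscle. Only WT spleen was low, and the Tg spleen libraries, though spread, did not overlap with it. Lgals3 rose by 3.05 from WT spleen to WT muscle (adjusted p = 1.46e-05), the Tg effect was 0.57 (adjusted p = 0.237), and the difference was -2.48 (SE 0.396, adjusted p = 0.035). Macrophages also express galectin-3, and their summed markers were higher in injured Tg than in WT spleen, as given above. In uninjured Tg spleen Lgals3 was at 74.4 and 112 CPM, and those markers summed to 435 to 515 CPM. The mean log2 CPM of the tested markers was 2.84 and 2.34 there, against 1.79 and 2.49 in WT spleen. The part of such cells was not tested. For Nhsl2, a relative of the actin-remodelling protein NHS (chrX:101849385-102092055), the libraries read 14.9 and 14.4 CPM in WT spleen, 65.1 and 57 in WT muscle, 49.9 and 63.3 in Tg spleen and 41.1 and 60.3 in Tg muscle. The 3 groups other than WT spleen overlapped one another. The WT tissue effect was 2.06 (adjusted p = 0.000119), the Tg effect -0.15 (adjusted p = 0.806) and the difference -2.21 (SE 0.366, adjusted p = 0.035).

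S100a10 and Ahnak encode partners at the inner face of the plasma membrane: S100a10 binds annexin A2, and the giant scaffold protein Ahnak binds that complex. S100a10 (chr3:93555080-93564643) was at 565 and 371 CPM in WT spleen, 1069 and 1067 in WT muscle, 977 and 929.9 in Tg spleen and 931 and 916 in Tg muscle. Both WT spleen libraries were lower than all others, and the Tg groups lay within a narrow range. Its WT tissue effect was 1.20 (adjusted p = 0.000136) and its Tg effect -0.05 (adjusted p = 0.92), a difference of -1.24 (SE 0.223, adjusted p = 0.0465). Ahnak (chr19:8989284-9076914) stood at 221 and 244 CPM in WT spleen, 982 and 896 in WT muscle, 451 and 479 in Tg spleen and 815 and 874 in Tg muscle. Here muscle was above spleen in every library of both genotypes, and Tg spleen lay between WT spleen and muscle. Muscle exceeded spleen by 2.01 in WT (adjusted p = 2.02e-07) and by 0.86 in Tg (adjusted p = 0.000486), with a difference of -1.15 (SE 0.179, adjusted p = 0.0245).

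Ccr4 and Fam129a followed the graded order of Ahnak, lowest in WT spleen, intermediate in Tg spleen and highest in muscle. Ccr4, the receptor for the chemokines CCL17 and CCL22 that draws Tregs to skin and inflamed tissue (chr9:114490316-114504916), was at 174 and 126 CPM in WT spleen, 688 and 792 in WT muscle, 266 and 318 in Tg spleen and 582 and 633 in Tg muscle. The spleen groups did not overlap, and Tg muscle lay below WT muscle. Its tissue effect was 2.31 in WT (adjusted p = 4.68e-07) and 1.05 in Tg (adjusted p = 0.000678), and the difference was -1.26 (SE 0.228, adjusted p = 0.0471). Fam129a, also known as Niban and induced under cell stress (chr1:151571186-151721939), read 121 and 101 CPM in WT spleen, 366 and 378 in WT muscle, 242 and 256 in Tg spleen and 373 and 387 in Tg muscle. It rose in both genotypes, by 1.75 in WT and 0.61 in Tg (adjusted p = 1.71e-06 and 0.013), and the difference was -1.14 (SE 0.197, adjusted p = 0.0434).

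**Figure D3:**
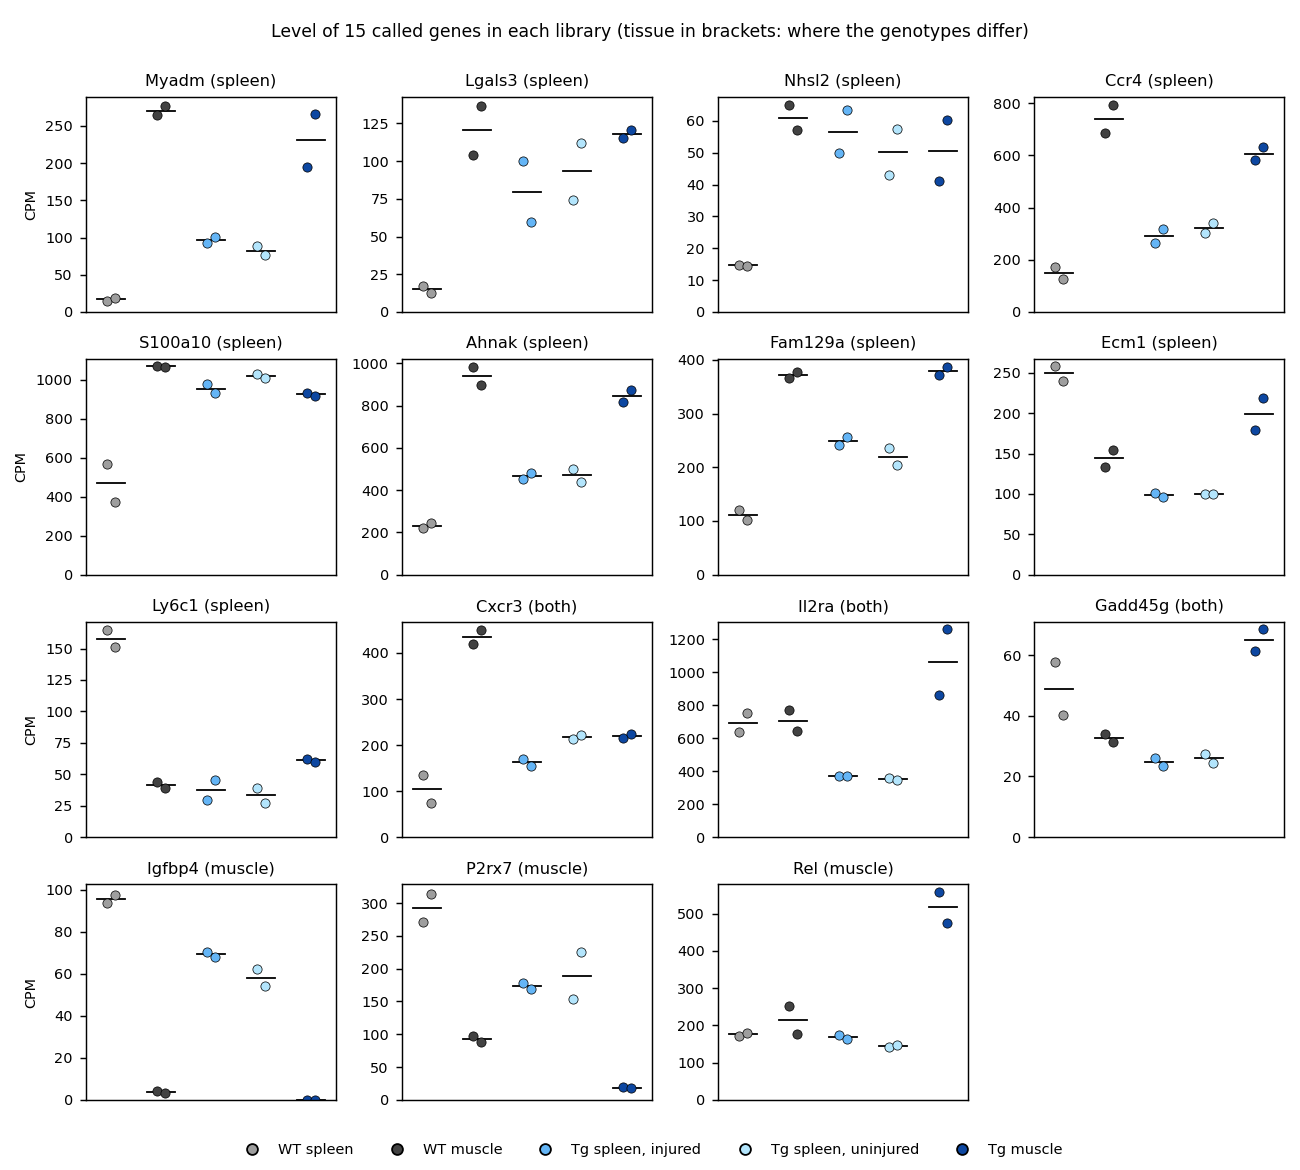
CPM of 15 of the 16 called genes that are not receptor genes in each library (points) with the group mean (bar), 2 libraries per group, uninjured Tg spleen included; the word in brackets is the organ that held the difference, and y axes start at 0. WT spleen stands apart for Myadm at 15.4 and 18.4 CPM, and Tg muscle stands apart for Rel at 558 and 476 CPM.

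In 2 further genes the difference lay in spleen with the opposite sign, and WT spleen held the highest level. Ecm1, a secreted glycoprotein of the extracellular matrix that activated helper T cells can make (chr3:95734147-95739569), was at 259 and 239.6 CPM in WT spleen, 134 and 154 in WT muscle, 102 and 96.7 in Tg spleen and 179 and 219 in Tg muscle. No groups overlapped: WT spleen was highest, then Tg muscle, WT muscle and Tg spleen. In WT Ecm1 fell by 0.79 from spleen to muscle (adjusted p = 0.00274), in Tg it rose by 1.00 (adjusted p = 0.000747), and the difference was 1.79 (SE 0.218, adjusted p = 0.00463). Ly6c1 encodes Ly6C, a surface protein anchored by a lipid tail and found on subsets of T cells and on monocytes (chr15:75044018-75048830). Its libraries read 164 and 152 CPM in WT spleen, 43.8 and 39 in WT muscle, 29.5 and 45.5 in Tg spleen and 62.5 and 59.6 in Tg muscle. Only WT spleen was high, and Tg spleen overlapped with WT muscle. The WT effect was -1.93 (adjusted p = 5.77e-05), the Tg effect 0.70 (adjusted p = 0.092) and the difference 2.63 (SE 0.331, adjusted p = 0.00463). Its near-identical neighbour Ly6c2 had a difference of 1.77 (SE 0.981, adjusted p = 0.716), and reads may be shared between them. Myadm, Ecm1 and Ly6c1 were called under each of the 18 alternatives run, with adjusted p of at most 0.00878, 0.0405 and 0.0405.

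For Il2ra, Gadd45g and Cxcr3 the difference was shared between the organs, with Tg against WT terms of opposite sign in spleen and muscle. Il2ra encodes CD25, the α chain that gives Tregs their high-affinity receptor for interleukin-2 (chr2:11642807-11693193). It stood at 637 and 753 CPM in WT spleen, 769 and 645 in WT muscle, 368 and 370.3 in Tg spleen and 860.1 and 1261 in Tg muscle. Tg spleen was lowest and Tg muscle highest, and the WT organs overlapped between them. Muscle and spleen differed by 0.02 in WT (adjusted p = 0.947), while Il2ra rose by 1.52 in Tg muscle (adjusted p = 3.59e-05), a difference of 1.5 (SE 0.234, adjusted p = 0.0245). In spleen Tg was -0.91 against WT (adjusted p = 0.0114), and in muscle 0.59 (adjusted p = 0.22). Gadd45g, a stress-inducible activator of p38 kinase signalling (chr13:51846678-51848468), read 57.7 and 40.1 CPM in WT spleen, 34.1 and 31.3 in WT muscle, 26.1 and 23.6 in Tg spleen and 61.3 and 68.7 in Tg muscle. The groups did not overlap; Tg held both the lowest and the highest. Its Tg effect was 1.39 (adjusted p = 0.00225), its WT effect -0.57 (adjusted p = 0.134) and the difference 1.96 (SE 0.347, adjusted p = 0.0437).

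Cxcr3, the receptor for the interferon-induced chemokines CXCL9 and CXCL10 and a mark of type 1 Tregs (chrX:101731535-101734269), was at 136 and 74.7 CPM in WT spleen, 419 and 449 in WT muscle, 170.0 and 155 in Tg spleen and 215 and 223 in Tg muscle. WT muscle stood apart at the top and WT spleen at the bottom, with no overlap between groups. The gene rose by 2.07 from WT spleen to WT muscle (adjusted p = 1.78e-05), the Tg effect was 0.43 (adjusted p = 0.252), and the difference was -1.64 (SE 0.29, adjusted p = 0.0468). Neither Tg against WT value passed alone: -0.99 in muscle (adjusted p = 0.0665) and 0.65 in spleen (adjusted p = 0.19). The call held in 4 of 10 other settings and in 2 of 8 fits with 1 library left out.

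In muscle lay the difference for Rel, P2rx7 and Igfbp4, with Tg muscle the group apart in each. Rel encodes c-Rel, the NF-kB subunit that acts below the T cell receptor and is needed to make Tregs (chr11:23736847-23770970). Its level was 172 and 180.0 CPM in WT spleen, 253 and 178 in WT muscle, 175 and 162 in Tg spleen and 558 and 476 in Tg muscle. Both Tg muscle libraries were above all others, and the remaining groups lay close together except for the first WT muscle library. Rel rose by 1.62 in Tg (adjusted p = 2.01e-05) against 0.29 in WT (adjusted p = 0.271), and the difference was 1.33 (SE 0.234, adjusted p = 0.0434). In muscle Tg exceeded WT by 1.27 (adjusted p = 0.00166), and in spleen the value was -0.06 (adjusted p = 0.959).

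P2rx7, an ion channel opened by extracellular ATP that can kill Tregs (chr5:122643911-122691432), was at 271 and 314 CPM in WT spleen, 97.4 and 87.6 in WT muscle, 179 and 169 in Tg spleen and 19.8 and 17.7 in Tg muscle. No groups overlapped, and Tg was below WT in each organ. It fell from spleen to muscle in both genotypes, with -1.66 in WT and -3.22 in Tg (adjusted p = 2.51e-05 and 2.01e-07), a difference of -1.55 (SE 0.272, adjusted p = 0.0434). Igfbp4, a binding protein for insulin-like growth factors and a member of the resting-state list (chr11:99041244-99054392), was at 93.8 and 97.7 CPM in WT spleen, 4.29 and 3.07 in WT muscle, 70.5 and 68.2 in Tg spleen and 0 and 0 in Tg muscle. No read was counted in Tg muscle, where 3 counts in the shallower library would be 1.12 CPM. Against the Tg spleen mean of 69.3 CPM, Tg muscle was therefore at least 61.8-fold lower, while WT muscle was 26-fold lower than WT spleen. On the log2 scale the difference was at most -1.25; the fitted value of -6.45 depends on how 0 is handled and is no measure of size (adjusted p = 0.035). P2rx7 was called in 2 of 8 fits with 1 library left out and Igfbp4 in 3.

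**Figure D4:**
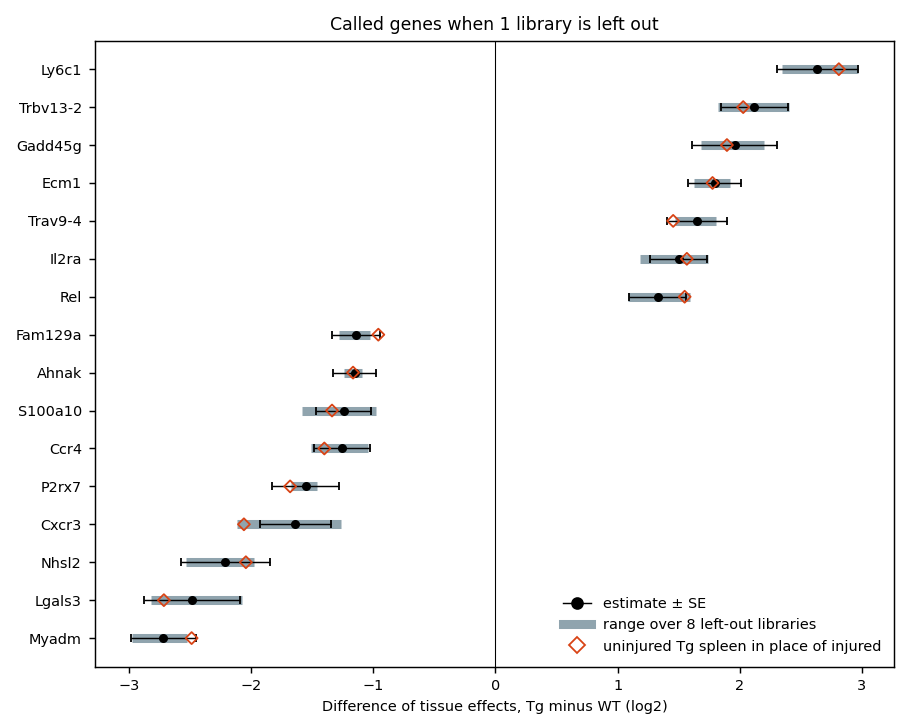
Difference of tissue effects (log2, x axis) for 16 of the 18 called genes, Igfbp4 not among them: black points with bars are the estimate ± SE, grey bars the range when each of the 8 libraries is left out in turn, and red diamonds the value with uninjured Tg spleen in place of injured. No range crosses 0, but these fits reuse libraries that gave the calls.

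The sign of each called gene was kept in every alternative in which it was fitted, as the plot of left-out libraries shows for 16 of them. These fits reuse libraries that gave the calls, so the kept signs are no separate support. The calls themselves often depended on a library. Without the first Tg spleen library the calls for Myadm, Ecm1 and Ly6c1 were left, and without the second these and Lgals3. Without the second WT spleen library Myadm, Ecm1, Ly6c1 and Trbv13-2 were left. With the first Tg muscle library left out Il2ra and Trav9-4 were called as well as those 4, and with the second left out Ahnak, Nhsl2 and Rel too. P2rx7 and Gadd45g were lost without the first WT spleen library, and Gadd45g and Cxcr3 were among those lost without the second WT muscle library. Without the first WT muscle library all 18 were called. The uninjured Tg spleen libraries gave a comparison that shares Tg muscle and the WT libraries with the one above. With them in place of the injured ones 20 genes were called, 16 of them among the 18. Fam129a was among those that were not, with -0.96 at an adjusted p of 0.0832. For Myadm the uninjured Tg spleen libraries held 88.4 and 76.2 CPM, for Il2ra 359 and 346 and for Ecm1 100.3 and 100.3. These lay on the same side of WT spleen as the injured ones did.

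The receptor genes among the 18, Trbv13-2 and Trav9-4, were far higher in Tg than in WT libraries of either organ. Trbv13-2, the segment of Vβ8.2 and thus part of the sorting gate (chr6:41121396-41121832), was at 51 and 72 CPM in WT spleen, 15.6 and 22 in WT muscle, 3581 and 3741 in Tg spleen and 4704 and 5039.5 in Tg muscle. Within WT, muscle held less than spleen, and within Tg more. The WT effect was -1.71 (adjusted p = 9.3e-05), the Tg effect 0.41 (adjusted p = 0.203) and the difference 2.12 (SE 0.272, adjusted p = 0.00842). Trav9-4 (chr14:53676141-53676630), an α chain segment, read 11.1 and 9.08 CPM in WT spleen, 10.4 and 11.7 in WT muscle, 368 and 397 in Tg spleen and 1209 and 1501 in Tg muscle. It rose by 1.83 from Tg spleen to Tg muscle (adjusted p = 1.32e-06), WT was at 0.18 (adjusted p = 0.601), and the difference was 1.65 (SE 0.244, adjusted p = 0.0188). The constant genes followed in sign without a call: Trac had 0.66 (SE 0.213, adjusted p = 0.366) and Trbc2 0.97 (SE 0.193, adjusted p = 0.076). Close relatives of these segments can share their reads.

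Genes of the actin and membrane cytoskeleton, lamins, annexins and S100 proteins had the most negative median of the 17 lists that are not markers of another cell type. Of 24 tested members, 3 were called, all with a negative difference (Myadm, Ahnak and S100a10), and 0 with a positive one. The number called was 1 without the first Tg muscle, the second WT spleen or either Tg spleen library, 10 without the first WT spleen library, 6 without the first WT muscle library and 9 with DESeq2. At an unadjusted p under 0.05, 15 of the 24 were negative and 0 positive, where 4.64% and 3.29% of all genes tested were, and the difference lay in spleen for 14 of the 15 and in both organs for the other. The list's median difference was -0.85, against -0.01 over all genes tested, and it ran from -0.68 to -0.92 with each library left out. Its median Tg against WT value was 0.70 in spleen and -0.15 in muscle. S100a11, another calcium-binding S100 protein, was at 53.8 and 31 CPM in WT spleen, 152 and 147 in WT muscle, 116 and 103 in Tg spleen and 146 and 121 in Tg muscle. Only WT spleen was low; the difference of -1.57 (SE 0.303, adjusted p = 0.0669) did not pass. Tagln2, an actin-bundling protein, gave -0.89 (SE 0.216, adjusted p = 0.211) from 344 and 269 CPM in WT spleen, 932 and 952 in WT muscle, 459 and 555 in Tg spleen and 821 and 869.8 in Tg muscle. Its order was that of Ahnak. Myadm was put in this list with earlier results of these data known.

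The effector program of tissue Tregs had the same lean. Of its 34 members, 1 was called (Lgals3, negative). In the main fit 15 were negative and 0 positive at an unadjusted p under 0.05, where 4.64% and 3.29% of all genes tested were. For 14 of those 15 the difference lay in spleen. The median difference was -0.71, between -0.43 without the first Tg spleen library and -0.85 without the second. At an unadjusted p under 0.05, 10 members were negative and 4 positive without the first Tg spleen library, 10 and 1 without the second WT spleen library (median -0.45), and 13 and 3 without the second WT muscle library. With all libraries thinned to the smallest the median was -0.37. Both tissue effects were positive at the median, 1.76 in WT and 1.47 in Tg. The mean log2 CPM of the list was 6.12 and 5.96 in WT spleen, 7.03 and 6.59 in Tg spleen, 8.07 and 8.38 in WT muscle, and 8.46 and 8.41 in Tg muscle. Spleen groups did not overlap, whereas the muscle groups lay closer together. Gzmb, the protease granzyme B, was at 51.9 and 27 CPM in WT spleen, 1043 and 1306 in WT muscle, 163 and 199 in Tg spleen and 1467 and 2136 in Tg muscle. It was higher in Tg than in WT libraries of each organ, more so in spleen, with a difference of -1.64 (SE 0.408, adjusted p = 0.291). Il1rl1, the IL-33 receptor ST2, read 21.2 and 36.7 CPM in WT spleen, 189 and 259 in WT muscle, 101 and 141 in Tg spleen and 348 and 458 in Tg muscle, a difference of -1.17 (SE 0.354, adjusted p = 0.345). Klrg1, an inhibitory receptor on terminally differentiated Tregs, was at 48.1 and 81.9 CPM in WT spleen, 376 and 784 in WT muscle, 429 and 445 in Tg spleen and 930.4 and 997 in Tg muscle. The Tg spleen libraries lay within the WT muscle range, and the difference was -1.99 (SE 0.539, adjusted p = 0.371). Icos, a costimulatory receptor, gave -0.82 (SE 0.233, adjusted p = 0.288) from 325 and 219 CPM in WT spleen, 1545 and 1903 in WT muscle, 619.6 and 582 in Tg spleen and 2034 and 2289.6 in Tg muscle. None of these 4 passed the adjusted threshold. Like the list, the summed macrophage markers given above were higher in injured Tg than in WT spleen. In uninjured Tg spleen the list's mean log2 CPM was 6.97 and 7.12, and those markers summed to 435 to 515 CPM. The mean log2 CPM of the tested macrophage markers was 2.84 and 2.34 there, against 1.79 and 2.49 in WT spleen. The part of such cells was not tested.

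Chemokine receptors and integrins, which steer T cells into tissues and hold them there, numbered 31 tested members. Called were 2, Cxcr3 and Ccr4, both negative. At an unadjusted p under 0.05, 10 were negative and 0 positive, where 4.64% and 3.29% of all genes tested were. Of the 10, 6 lay in spleen, 3 in both organs and 1 in muscle. The median difference was -0.84 and ran from -0.57 without the second WT muscle library to -1.13 without the first. Itga4, the α4 integrin subunit, was the member whose difference lay in muscle: it was at 290.4 and 324 CPM in WT spleen, 179.7 and 111 in WT muscle, 311 and 320.3 in Tg spleen and 60.2 and 49.8 in Tg muscle. Tg muscle was lowest and the spleen groups overlapped, with a difference of -1.44 (SE 0.284, adjusted p = 0.0805). Itgae, the CD103 integrin chain that binds E-cadherin, had 139.9 and 150.3 CPM in WT spleen, 869 and 1644 in WT muscle, 381 and 406 in Tg spleen and 1501 and 1579 in Tg muscle. The first WT muscle library lay well below the second, and the difference was -1.15 (SE 0.337, adjusted p = 0.347). Ccr10, a receptor for skin and mucosal chemokines, had few reads: 0 and 3.8 CPM in WT spleen, 12.9 and 21.5 in WT muscle, 16.5 and 15.5 in Tg spleen and 3.37 and 5.64 in Tg muscle. It was high in WT muscle and in Tg spleen, a crossed pattern with a difference of -4.67 (SE 0.947, adjusted p = 0.089). The integrin chain Itgam, which myeloid cells also carry, had -2.76 (SE 0.578, adjusted p = 0.107) and lay in spleen, at 3.37 and 4.43 CPM in WT and 21.8 and 35.2 in Tg. In uninjured Tg spleen Itgam was at 24.2 and 20.3 CPM. Macrophage markers were also higher in injured Tg than in WT spleen, and their part was not tested.

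**Figure D5:**
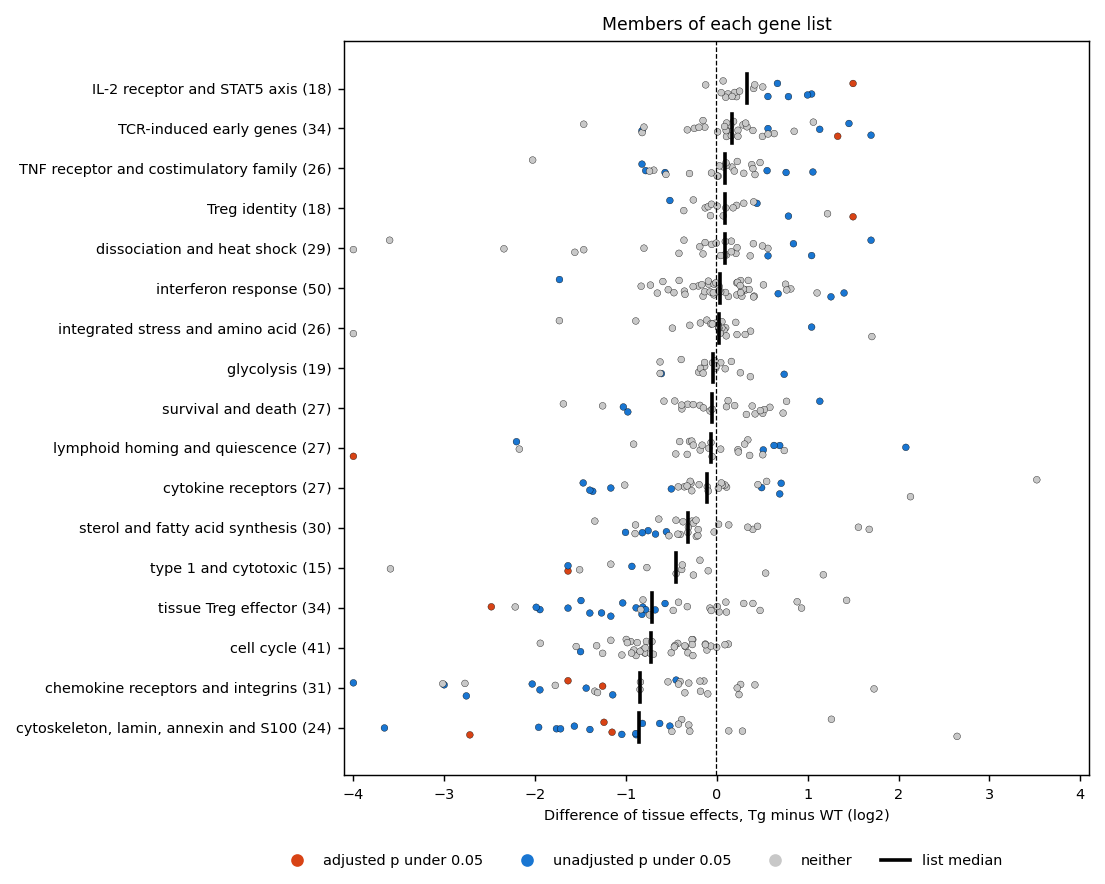
Difference of tissue effects (log2, x axis) for each tested member (points) of 17 gene lists, with the list median (bar) and the median of all genes tested (dashed line); values beyond the axis are drawn at its edge. Tested members are counted in brackets. The lists for cytoskeleton, chemokine receptors, cell cycle and tissue effectors have medians of -0.71 or lower, and the IL-2 list has the highest median, 0.33.

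Genes of the interleukin-2 receptor and its STAT5 signal leaned to positive differences. Of 18 tested members 17 were positive, where 49.2% of all genes tested were, and 1 was called (Il2ra). At an unadjusted p under 0.05, 6 were positive and 0 negative, where 3.29% and 4.64% of all genes tested were. Their difference lay in both organs for 3, in spleen for 2 and in muscle for 1. The median was 0.33, with 12 to 17 positive members when each library was left out; the low of 12 came without the second Tg muscle library, and the median was 0.52 without the first. Members at an unadjusted p under 0.05 fell in number to 2 without the second Tg spleen library and to 3 without the first WT muscle or the second Tg muscle library. Socs3, an inhibitor of cytokine signalling, was at 419 and 219 CPM in WT spleen, 247 and 299.7 in WT muscle, 131 and 125 in Tg spleen and 223 and 232 in Tg muscle. The first WT spleen library was the highest, and the difference was 1.04 (SE 0.352, adjusted p = 0.45). The list shares Il2ra with the 18 Treg identity genes, whose median was 0.08, with 3 positive and 1 negative at that p. Ikzf4, the transcription factor Eos, gave 0.79 (SE 0.272, adjusted p = 0.425) from 212 and 242 CPM in WT spleen, 116 and 163 in WT muscle, 154 and 110.4 in Tg spleen and 136 and 145 in Tg muscle. Its WT spleen libraries were above all others.

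Early genes of T cell receptor signalling had 34 tested members, 1 of them called (Rel, positive). At an unadjusted p under 0.05, 5 were positive and 1 negative, where 3.29% and 4.64% of all genes tested were. Positive differences numbered 25, where 49.2% of all genes tested were positive, and the list's median was 0.17. Without the first WT muscle library 16 were positive and the median was -0.02; without the first WT spleen library they were 18 of 35 and 0.02. Jun, the AP-1 subunit, was at 89.4 and 69.9 CPM in WT spleen, 285 and 258 in WT muscle, 21.5 and 15.5 in Tg spleen and 196 and 216 in Tg muscle. Muscle was above spleen in each genotype, Tg spleen was lowest, and the difference of 1.70 (SE 0.354, adjusted p = 0.111) lay in spleen. Myc, a driver of cell growth, gave 1.45 (SE 0.387, adjusted p = 0.288) from 119 and 178 CPM in WT spleen, 72.8 and 131 in WT muscle, 91.1 and 66.8 in Tg spleen and 160.1 and 138 in Tg muscle. Jun is also a gene that rises when tissue is digested: of the 29 members of the dissociation and heat shock list, 4 were positive and 0 negative at an unadjusted p under 0.05, and the median was 0.09 (0.16 with groups at 0 set to 3 counts). The part of tissue handling was not tested.

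Proliferation genes were nearly all negative, but their count and median moved with a single library. Of 41 tested members 39 were negative, where 50.8% of all genes tested were, and 0 were called by edgeR, DESeq2 or limma-voom. An unadjusted p under 0.05 was reached by 1 in edgeR (Mki67, the Ki-67 proliferation antigen) and by 12 in limma-voom. The list's mean log2 CPM was 5.59 and 4.05 in WT spleen, 5.70 and 5.29 in Tg spleen, 6 and 5.59 in WT muscle, and 5.47 and 5.82 in Tg muscle. The second WT spleen library stood alone at the bottom. Without it 25 of 41 were negative with a median of -0.12, and without the first WT spleen library 40 were, with a median of -1.70, 26 at an unadjusted p under 0.05 and 2 called; with all libraries the median was -0.73. Mki67 was at 47.1 and 27.4 CPM in WT spleen, 122 and 82.1 in WT muscle, 106 and 76.7 in Tg spleen and 71.8 and 108 in Tg muscle, a difference of -1.5 (SE 0.496, adjusted p = 0.45).

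For interferon response genes the result turned on which WT muscle library was kept. The 50 tested members had a median difference of 0.04, with 28 positive (49.2% of all genes tested were) and 0 called by edgeR, DESeq2 or limma-voom. At an unadjusted p under 0.05, 3 members were positive and 1 negative, where 3.29% and 4.64% of all genes tested were. Their mean log2 CPM was 6.46 and 7.69 in the WT muscle libraries, 7 and 7.13 in Tg muscle, 6.4 and 6.05 in WT spleen, and 6 and 5.94 in Tg spleen. Tg muscle thus lay between the WT muscle libraries. Without the second WT muscle library 48 members were positive (median 0.78, 27 at an unadjusted p under 0.05), and without the first 13 were (median -0.33, 10 negative at that p). Oas2, an antiviral enzyme, was at 24 and 21.3 CPM in WT spleen, 31.2 and 52.7 in WT muscle, 10.9 and 14.6 in Tg spleen and 56.8 and 68.9 in Tg muscle, a difference of 1.40 (SE 0.426, adjusted p = 0.328).

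Resting-state and lymphoid homing genes had a median muscle against spleen effect of -1.21 in WT and -0.89 in Tg, and showed no common direction in the difference. Of 27 tested members 1 was called (Igfbp4, negative), and the median was -0.06, also with Igfbp4 at its bound. At an unadjusted p under 0.05, 4 were positive and 2 negative, where 3.29% and 4.64% of all genes tested were. Tcf7, the quiescence factor TCF-1, was at 261 and 243 CPM in WT spleen, 33.4 and 21.8 in WT muscle, 167 and 163 in Tg spleen and 7.48 and 1.23 in Tg muscle. Tg muscle was lowest, and the difference of -2.21 (SE 0.626, adjusted p = 0.345) lay in muscle. Satb1, a chromatin organiser of T cells, went the other way at 2.08 (SE 0.519, adjusted p = 0.288), from 219 and 189 CPM in WT spleen, 78 and 40.0 in WT muscle, 57.3 and 104 in Tg spleen and 75.9 and 118 in Tg muscle. Only WT spleen was high. Type 1 and cytotoxic genes had 15 tested members, 13 of them negative, where 50.8% of all genes tested were. Of the 15, 1 was called (Cxcr3, which the chemokine receptor list also holds). Their median was -0.45 (-0.38 with groups at 0 set to 3 counts). Without the second WT muscle library 10 of 19 were negative with a median of -0.15, and without the first WT spleen library 15 of 17 with a median of -1.16.

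Several genes below the threshold repeated these patterns, but not all did. Mical3 was at 58.2 and 73 CPM in WT spleen, 32.3 and 21.8 in WT muscle, 48.9 and 63.9 in Tg spleen and 69.6 and 69.7 in Tg muscle. Only WT muscle was low, and the difference was 1.6 (SE 0.351, adjusted p = 0.128). Cass4, a scaffold protein of focal adhesions, was at 7.69 and 10.8 CPM in WT spleen, 105 and 93.1 in WT muscle, 28.8 and 42.4 in Tg spleen and 82.6 and 78.2 in Tg muscle. Its WT spleen libraries were lowest, and the difference was -2.19 (SE 0.42, adjusted p = 0.0669). Btg1, an inhibitor of proliferation, gave 1.18 (SE 0.222, adjusted p = 0.063) from 149 and 163 CPM in WT spleen, 131 and 119 in WT muscle, 103 and 109.9 in Tg spleen and 209.8 and 176 in Tg muscle. Tg muscle was highest and Tg spleen lowest, as for Il2ra. Ahcyl2, a relative of S-adenosylhomocysteine hydrolase, had 1.5 (SE 0.287, adjusted p = 0.0669), from 221 and 324 CPM in WT spleen, 118 and 88.6 in WT muscle, 139 and 144 in Tg spleen and 134 and 169 in Tg muscle. WT spleen was high, as for Ly6c1. Stat3, a transcription factor below cytokine receptors, gave 0.78 (SE 0.182, adjusted p = 0.185) from 415 and 402 CPM in WT spleen, 554 and 647 in WT muscle, 325 and 326 in Tg spleen and 764 and 882 in Tg muscle. Tg muscle was highest and Tg spleen lowest. The cytokine receptor Il9r, at 13 and 21.3 CPM in WT spleen, 40.9 and 57.7 in WT muscle, 70.2 and 84.1 in Tg spleen and 86.8 and 76.5 in Tg muscle, gave -1.40 (SE 0.358, adjusted p = 0.248), and Il18r1, at 19.7 and 20.3 CPM in WT spleen, 58.5 and 60.5 in WT muscle, 75.7 and 65.7 in Tg spleen and 98.4 and 65.2 in Tg muscle, gave -1.37 (SE 0.325, adjusted p = 0.2). Both were lowest in WT spleen.

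Several genes with large tissue effects in both genotypes had no detectable difference between them. Areg, the growth factor amphiregulin, was at 2.4 and 2.95 CPM in WT spleen, 139 and 197 in WT muscle, 3.63 and 0.449 in Tg spleen and 247 and 211 in Tg muscle. Every muscle library was far above every spleen library, and the difference was 0.88 (SE 0.965, adjusted p = 0.89). Il10, an anti-inflammatory cytokine, read 11.5 and 4.22 CPM in WT spleen, 265 and 181 in WT muscle, 2.95 and 1.12 in Tg spleen and 125 and 125 in Tg muscle, a difference of 0.93 (SE 0.616, adjusted p = 0.782). Ctla4, the inhibitory receptor of Tregs, rose in muscle in both genotypes, from 436 and 423 CPM to 1737 and 2336 in WT and from 469.5 and 450.2 to 2134 and 2238 in Tg, a difference of 0.00 (SE 0.192, adjusted p = 1). Foxp3 rose less in muscle, by 0.68 in WT and 0.90 in Tg, with a difference of 0.22 (SE 0.185, adjusted p = 0.841). Cd4 had no called tissue effect, at 0.37 in WT and 0.003 in Tg, and its difference was -0.36 (SE 0.176, adjusted p = 0.646). Bcl2, a survival factor, was lower in muscle, at 249 and 337 CPM in WT spleen, 23.7 and 12.1 in WT muscle, 94.5 and 116 in Tg spleen and 8.23 and 9.32 in Tg muscle, with 0.51 (SE 0.404, adjusted p = 0.83). Gpr83, a receptor marking resting Tregs, was at 354 and 422 CPM in WT spleen, 44.5 and 21 in WT muscle, 82.5 and 104 in Tg spleen and 4.86 and 7.6 in Tg muscle. It was lower in Tg than in WT in each organ, and the difference of tissue effects was -0.26 (SE 0.462, adjusted p = 0.936). Intervals implied by these SEs were wide for Areg and Il10, whose spleen levels were low, and narrow for Ctla4, Foxp3 and Cd4.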

How the data were processed

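STAR 2.5.4 alignment to mm10 and counting by featureCounts were done by the authors, per the submitters' processing notes. The featureCounts version, annotation and strand option: not given in the sources used here. The deposited values are raw counts for 52997 gene symbols. Per the labels' protocols, oligo(dT)-primed cDNA was amplified and fragmented by transposon, which marks no strand, so overlapping genes may share reads. The labels and the series' design text disagree on cells per library, so none is given.

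The 10 Treg libraries (5 groups of 2) were fitted together (edgeR 4.0.16, R 4.3.3). Genes were kept by filterByExpr on the groups (13188), scaled by TMM, and tested by glmQLFTest after estimateDisp and a robust glmQLFit. Calls are at a Benjamini-Hochberg adjusted p under 0.05, with no minimum fold; 5 residual degrees of freedom remained. SE is approximated as the log2 value divided by the square root of F. A group's level is its libraries' TMM-scaled CPM. Depth sets a floor of 0.368 to 1.44 CPM per library for a count of 0 (3 counts); floors cover counting error only. Libraries of a group differed beyond sampling noise (chi-square of 5.47 to 28.9 per degree of freedom), so none was counted as a duplicate. Same-numbered libraries did not deviate together in every pair of groups (r from -0.06 to 0.15 across 9363 genes, which are not independent replicates), so numbers were not taken to pair libraries.

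Members, the 25 gene lists and tests were chosen with earlier results of these data known. Named genes are the 12 with the largest positive and the 12 with the largest negative difference of those called at a mean log2 CPM of 3 or more (filled up by smallest p, said not to pass). Up to 4 called and 2 other members were named from every list, together with a fixed set of Treg and receptor genes; receptor genes, unnamed models and pseudogenes were counted apart. Some called genes and list members are counted but not reported here by name. Itgam and Ly6c2 were added after their values were seen. Tested on simulated data with 200 changed genes of at least 5 CPM among 13188, the procedure recovered 12% of 2-fold and 61% of 4-fold changes, and 6.4% of its 78 calls were false. The simulated libraries shared 1 mean profile without other tissue or genotype effects, and all changes were put into Tg muscle. These rates may therefore differ from those of the real contrast, where most called differences lay in spleen. Alternatives were DESeq2's size factors for scaling, a 5 CPM filter or none, DESeq2 1.42.0, limma-voom (limma 3.58.1), no robust dispersion, a replicate block, the 8 libraries alone, receptor genes removed, thinning to the smallest library, a minimum log2 of 1 and leaving out each library; uninjured Tg spleen was added after seeing the data. Gene positions are from GENCODE M21 (GRCm38) and promoters from RefSeq (GRCm38.p6). The 6 whole muscle libraries were not used.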

Additional observations from a re-analysis of the deposited data

Results flagged for a closer look

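Each gene here had a muscle against spleen effect that differed between Tg and WT Tregs by a test of the difference itself, the interaction contrast (edgeR, adjusted p under 0.05). Values are Tg minus WT on the log2 scale. The tissue effect was lower in Tg, with WT spleen the group apart, for Myadm at -2.72, Lgals3 at -2.48, Nhsl2 at -2.21, Ccr4 at -1.26, S100a10 at -1.24, Ahnak at -1.15 and Fam129a at -1.14. The level of these genes was higher in Tg than in WT spleen. Cxcr3, at -1.64, had WT muscle apart. P2rx7, at -1.55, had Tg muscle apart, and so had Igfbp4, whose fitted -6.45 rests on counts of 0. A higher tissue effect in Tg was found for Ly6c1 at 2.63, Ecm1 at 1.79, Gadd45g at 1.96, Il2ra at 1.5 and Rel at 1.33. The receptor segments Trbv13-2, at 2.12, and Trav9-4, at 1.65, are reported apart, as all receptor genes were. Trbv13-2, though not Trav9-4, was also part of the Vβ8 sorting gate in Tg. Groups of 2 libraries are too small for a test of outlying samples.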

How the results depend on the processing

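The count of genes with a different tissue effect was 18 (7 positive, 11 negative). Negative differences were 61.1% of them, 45% with thinned counts and 25% without robust dispersion. The count was 140 (37 and 103) without a filter on low counts, 62 (21 and 41) with DESeq2, 4 (3 and 1) without robust dispersion and 4 (3 and 1) in a fit of the 8 libraries of the contrast. With counts thinned to the smallest library it was 20, of which 11 were positive and 13 were among the 18. The count stayed within 1.5 times of 18 with relative log expression scaling (15), a filter at 5 CPM (15), limma-voom (17), receptor genes removed (16), a minimum log2 of 1 (18) and uninjured Tg spleen (20). A similar count was not always the same genes: of the 17 with limma-voom, 12 were among the 18. With a replicate block the count was 14, of which 12 were among the 18. The labels' numbers name libraries and were not shown to pair them. Leaving out 1 library gave 3 to 241 genes, 2 to 169 positive and 1 to 72 negative. No called gene changed sign in any alternative in which it was fitted, but every alternative reused libraries that gave the calls. The cause of these shifts was not tested.

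For the effects behind the difference, leaving out 1 library gave 887 to 2768 genes for WT muscle against WT spleen Tregs, 452 to 1466 for Tg muscle against injured Tg spleen Tregs, 25 to 361 for Tg against WT Tregs in muscle and 57 to 331 for Tg against WT Tregs in spleen after injury. In muscle the count of 42 became 195 without a filter, 103 with DESeq2, 27 in the 8 libraries alone and 14 with receptor genes removed. In spleen the count of 172 became 372 without a filter and 304 with DESeq2. Where a group was left with 1 library, that library was assumed to vary like the others. With 2 libraries per group and few 2-fold changes recovered in the self-test, a gene without a call was not shown to be alike in the genotypes.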

Other observations

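Genes of sterol and fatty acid synthesis, which supply membrane lipids and respond to SREBP factors, had mostly negative differences. Of 30 tested members 23 were negative, where 50.8% of all genes tested were, and 0 were called by edgeR, DESeq2 or limma-voom. At an unadjusted p under 0.05, 5 were negative and 0 positive, where 4.64% and 3.29% of all genes tested were. Of the 5, 3 lay in muscle, 1 in both organs and 1 in spleen. The median was -0.32 and ran from -0.26 to -0.43 with each library left out. Mvd, a decarboxylase of the mevalonate pathway, was at 51.4 and 43.7 CPM in WT spleen, 76.4 and 69.7 in WT muscle, 57.8 and 46.7 in Tg spleen and 40.0 and 40.2 in Tg muscle. Tg muscle was lowest, and the difference was -1.0 (SE 0.295, adjusted p = 0.305).

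Glycolysis genes (19 tested, 6 positive, median -0.05), survival and death genes (27 tested, 13 positive, median -0.05), integrated stress and amino acid genes (26 tested, 16 positive, median 0.02) and TNF receptor and costimulatory genes (26 tested, 17 positive, median 0.09) held 0 members called by edgeR, DESeq2 or limma-voom. At an unadjusted p under 0.05 in edgeR, 1 glycolysis gene was positive and 1 negative, 1 survival gene positive and 2 negative, 1 stress gene positive and 0 negative, and 3 TNF receptor genes positive and 3 negative. Of all genes tested 3.29% were positive and 4.64% negative at that level, and 49.2% were positive at any p. Among cytokine receptors (27 tested, median -0.10, or -0.20 with groups at 0 set to 3 counts) 3 were positive and 5 negative at that level. Cd96, an adhesion receptor, was positive at 1.06 (SE 0.304, adjusted p = 0.298).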
